A study of Rattus norvegicus with 40 samples.

Results

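In 40 adrenal gland libraries of Sprague Dawley rats, 10 of the 32545 genes listed were chosen because their level fell into an off state and an on state among male animals, with a wide gap between neighbouring values. The members were chosen by their FPKM values (fragments scaled by gene length and by library size) in the 20 male libraries. In males, the sorted values of log2(FPKM + 1) had to hold a gap of at least 2, with under 1 FPKM below the gap and at least 3 libraries on each side. The male values, by state and by dose, are therefore given as a description, with no p-value for a member. The study measured RNA from the adrenal glands of adult males and females after exposure to a mixture of organophosphate esters (OPE), a class of flame retardants and plasticizers. Each sex had a control group and groups labelled 30x, 1000x and 30000x, with 5 libraries in each of the 8 groups. All groups share the stock and the tissue, and no transgene or deletion is named in the labels. What the multiples refer to, how the mixture was given, for how long, and what the controls received are not given in the labels used here. The labels call the 5 libraries of a group biological replicates without naming animals, so each library is read here as 1 animal only as far as that label goes, and p-values measure the spread between these libraries.

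The adrenal gland has an outer cortex, which makes steroid hormones such as corticosterone and aldosterone, and an inner medulla, which makes catecholamines. Sprague Dawley rats are an outbred stock: unlike animals of an inbred strain, they carry different alleles at many places in the genome. The labels give no genotypes, and whether the states below go with genotype was not tested.

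Whole reads were recovered from the FPKM values, and the libraries held 13527205 to 23838651 reads on genes, with a median of 17528215. Female 30000x replicate 5 was the shallowest library and differed from its group in genes detected: 11905 genes reached 1 FPKM, where the remaining 4 libraries had 12390 to 12582. The name table at hand, of 47357 rows, holds none of the files' Ensembl identifiers. Hence the genes are given by identifier, no role is given to any of them, and neither the adrenal markers nor markers of neighbouring tissue were checked. For the same reason, whether a member shares reads with a near-identical copy elsewhere in the genome was not tested.

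The gap rule was met by 12 of the 23040 genes with a value in any library in males, or 0.0521%, and the 10 members are among these 12. The members' gaps ran from 2.10 for ENSRNOG00000019050, the member just inside the threshold, upward. Just outside it were ENSRNOG00000003580 with a gap of 1.90 and ENSRNOG00000020799 and ENSRNOG00000023386, each with 1.77. The other genes that met the rule in males were ENSRNOG00000060982, a gene of 112 bp with a gap of 3.24 that was off in 3 males, and ENSRNOG00000014118, with a gap of 2.99. The latter was on in 4 males and reached at most 0.192 FPKM in any female. Neither is counted as a member below. Lengths were worked out from the FPKM values along with the reads, each as the shortest that made a gene's values whole. By these, the members' median length was 1045 bp, from 469 to 2068 bp. The median was 2089 bp for the 13926 genes at 1 FPKM or more in at least 5 of the 40 libraries.

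For every member, the threshold between off and on was set at the middle of its male gap on the log2 scale, and the same threshold was applied to females. Of the 200 pairings of a member with a male library, 59 were on (29.5%), and of the 200 in females, 57 were on (28.5%). Over the controls of both sexes together, all 10 members were on in at least 1 animal. Both states were present for 9 members among the 5 male controls alone and for 6 among the 5 female controls. Of the 80 combinations of a member and a group, 58 held both states, 19 were all off and 3 were all on. The standard deviation of log2(FPKM + 1) over the 40 libraries had a median of 1.83 among members, with a range of 0.89 to 2.5, against 0.29 for the 13926 genes. That contrast follows from how the members were chosen. The level in whole glands does not separate fewer cells making a transcript from less of it per cell; these cannot be told apart.

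**Figure D1:**
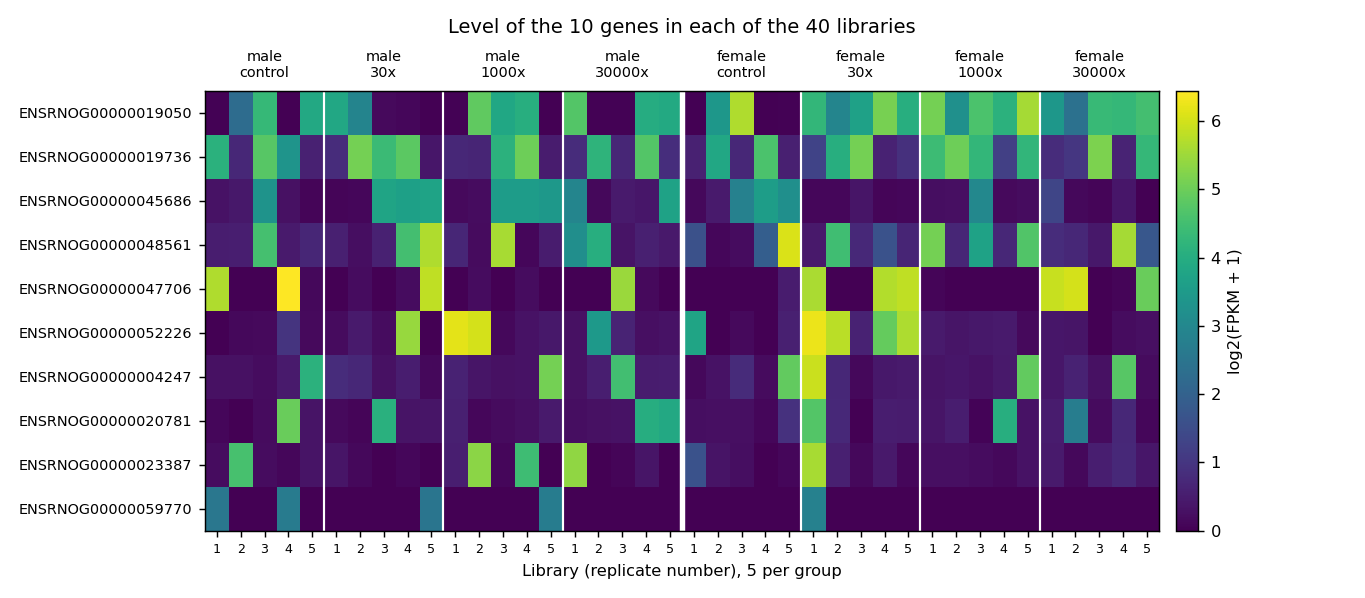
Level of each of the 10 members (rows) in each of the 40 libraries (columns, by sex and dose), as log2(FPKM + 1) in colour. Bright and dark cells stand side by side within most groups, controls included.

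ENSRNOG00000019050 was the member most often on, in 11 males and 17 females, with a threshold of 1.33 FPKM. In male controls it read 0.023, 3.83, 18.9, 0 and 13.9 FPKM in replicates 1 to 5. In male 30x it read 13.6, 6.44, 0.125, 0.084 and 0 FPKM, and in male 1000x 0.028, 28.4, 13.2, 15.5 and 0 FPKM. Each of these male groups thus held both states. In male 30000x the values were 25.2, 0.030, 0.021, 14.9 and 14.1 FPKM. In female controls they were 0, 9.72, 50.3, 0 and 0.027 FPKM. Females of the 3 exposed groups, by contrast, were on without exception. The 30x females read 18.3, 6.69, 11.9, 33.6 and 15.5 FPKM, the 1000x females 33.2, 8.38, 23.5, 16.6 and 46.7 FPKM, and the 30000x females 9.63, 4.29, 19.2, 18.6 and 21.9 FPKM. The off state was close to empty: the highest of the 12 off libraries held 7 reads, and 5 held none. Among the on libraries the level spread 13.1-fold, the widest of the 10 members.

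ENSRNOG00000019736 was on in 10 males and 10 females. Among males it was on in controls 1, 3 and 4 (16.3, 26.4 and 9.14 FPKM), in 30x replicates 2, 3 and 4 (33.1, 20.1 and 27.4 FPKM), in 1000x replicates 3 and 4 (16.6 and 31.7 FPKM) and in 30000x replicates 2 and 4 (17.3 and 25.3 FPKM). Among females it was on in controls 2 and 4 (13.7 and 23.4 FPKM), in 30x replicates 2 and 3 (15.3 and 32.99 FPKM), in 1000x replicates 1, 2, 3 and 5 (20.2, 31.6, 18.3 and 17.998 FPKM) and in 30000x replicates 3 and 5 (35.3 and 18.5 FPKM). Both states were thus present in each of the 8 groups. In the 20 off libraries it was low but never at 0: the lowest was 0.311 FPKM and the highest 1.46 FPKM, or 31 reads. The on levels, with a median of 20.2 FPKM, did not come nearer than 9.14 FPKM.

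ENSRNOG00000045686 was on in 9 males and 4 females. The male libraries on were control 3 (8.90 FPKM), 30x replicates 3, 4 and 5 (12.5, 11.6 and 12.4 FPKM), 1000x replicates 3, 4 and 5 (10.8, 10.7 and 9.80 FPKM) and 30000x replicates 1 and 5 (6.67 and 12.2 FPKM). The female libraries on were controls 3, 4 and 5 (6.17, 10.97 and 8.21 FPKM) and 1000x replicate 3 (7.11 FPKM). No female of the 30x or 30000x group was on. Its on levels were tight, with a highest value 2.02 times the lowest. In off libraries it stayed at or under 0.381 FPKM except for 1.54 FPKM, or 62 reads, in female 30000x replicate 1.

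ENSRNOG00000048561 was on in 6 males and 6 females. The male libraries on were control 3 (22.3 FPKM), 30x replicates 4 and 5 (22.02 and 49.7 FPKM), 1000x replicate 3 (47.6 FPKM) and 30000x replicates 1 and 2 (8.13 and 15.5 FPKM). The female libraries on were control 5 (66.6 FPKM), 30x replicate 2 (21.2 FPKM), 1000x replicates 1, 3 and 5 (33.2, 12.03 and 24.9 FPKM) and 30000x replicate 4 (46.4 FPKM). It had the highest off value of the 10 members. Off males reached at most 0.624 FPKM, but 4 off females lay between 2.01 and 2.80 FPKM, the highest in control 4 with 38 reads, just under the threshold of 2.85 FPKM. None of the 28 off libraries was at 0.

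ENSRNOG00000047706 gave the cleanest separation among members with high on levels: 10 libraries read 30.4 to 86.0 FPKM and the other 30 at most 0.409 FPKM, or 8 reads, with 21 of those at 0. The males on were controls 1 and 4 (49.8 and 86.0 FPKM), 30x replicate 5 (55.8 FPKM) and 30000x replicate 3 (43.3 FPKM). The females on were 30x replicates 1, 4 and 5 (48, 51.0 and 55.8 FPKM) and 30000x replicates 1, 2 and 5 (58.3, 64.04 and 30.4 FPKM). No female control, no female 1000x animal and no male 1000x animal was on. The median of the on levels, 53.4 FPKM, stood at the percentile 89.8 of mean levels of the 13926 genes, so that the gene was among the more abundant ones in the animals that had it.

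ENSRNOG00000052226, the shortest member at 469 bp, was on in 4 males and 5 females. The males on were 30x replicate 4 (42.9 FPKM), 1000x replicates 1 and 2 (71.0 and 64.3 FPKM) and 30000x replicate 2 (10.2 FPKM). No male control was on, the highest reading 0.957 FPKM. The females on were control 1 (12.6 FPKM) and 30x replicates 1, 2, 4 and 5 (75.0, 54.1, 29.4 and 49.0 FPKM). The remaining 30x female, replicate 3, read 0.534 FPKM, and all 10 females of the 1000x and 30000x groups read 0.391 FPKM or less. The on levels spread 7.36-fold, with the values of 10.2 and 12.6 FPKM well under the other 7.

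ENSRNOG00000004247 was on in 3 males and 4 females and never in more than 1 library of a group. The males on were control 5 (16.6 FPKM), 1000x replicate 5 (33.1 FPKM) and 30000x replicate 3 (21.5 FPKM). The females on were control 5 (28.7 FPKM), 30x replicate 1 (59.6 FPKM), 1000x replicate 5 (28.5 FPKM) and 30000x replicate 4 (26.4 FPKM). The male 30x group alone had no on library. All 33 off libraries held at least 1 read and at most 9, and none passed 0.75 FPKM.

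ENSRNOG00000020781 was on in 4 males and 3 females. The males on were control 4 (30.4 FPKM), 30x replicate 3 (16.1 FPKM) and 30000x replicates 4 and 5 (15.3 and 13.7 FPKM). The females on were 30x replicate 1 (25.4 FPKM), 1000x replicate 4 (15.3 FPKM) and 30000x replicate 2 (5.68 FPKM). The last of these lay well below the male on levels. Off libraries reached at most 0.874 FPKM.

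ENSRNOG00000023387 and ENSRNOG00000059770 were each on in 4 males and in 1 female, which was the same animal, 30x replicate 1. ENSRNOG00000023387 was on in male control 2 (22.7 FPKM), male 1000x replicates 2 and 4 (39.0 and 20.9 FPKM), male 30000x replicate 1 (40.7 FPKM) and that female (47.4 FPKM). Its highest off library was female control 1, with 2.07 FPKM or 21 reads. ENSRNOG00000059770 was on in male controls 1 and 4 (4.90 and 5.45 FPKM), male 30x replicate 5 (4.69 FPKM), male 1000x replicate 5 (5.48 FPKM) and that female (6.14 FPKM). The other 35 libraries did not hold a single read of it, while the on libraries held 77 to 110 reads. Against a floor of 3 reads per library, which a count of 0 allows for counting error only, its median on level was at least 34.3-fold higher. It had the lowest median on level of the 10 members and the least spread among on libraries, with a highest value 1.31 times the lowest.

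**Figure D2:**
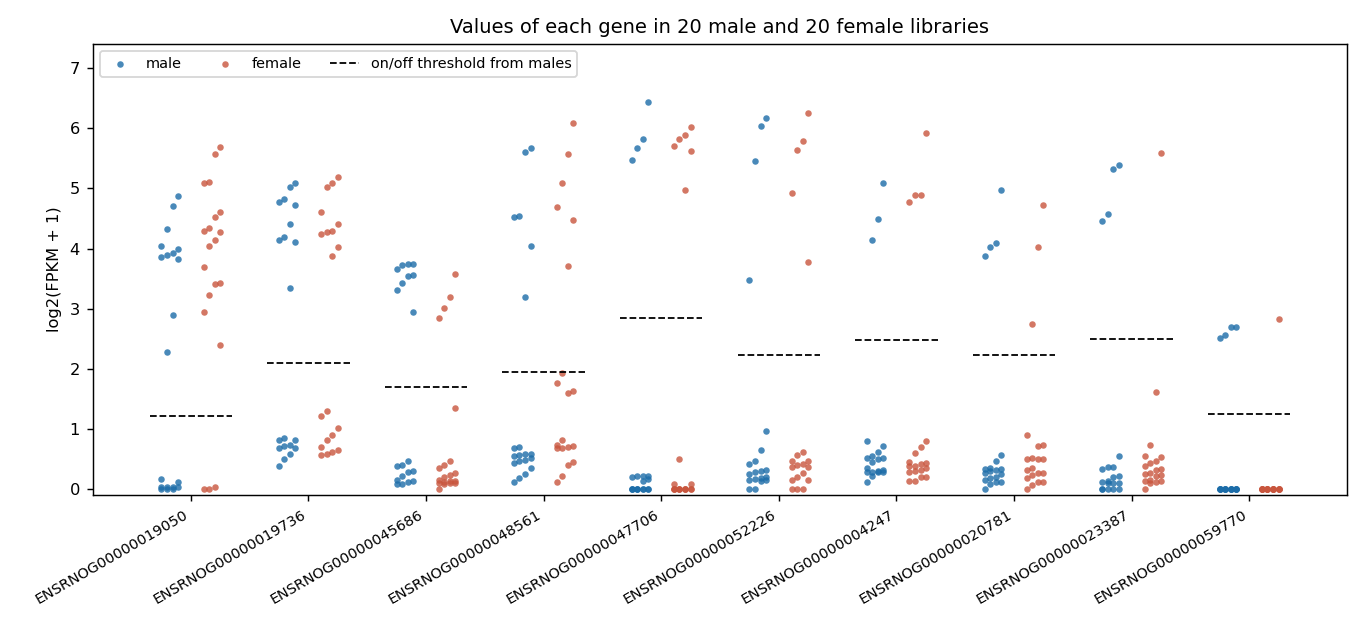
Level of each member by sex, with 1 point per library on a log2(FPKM + 1) axis and the threshold from the male gap as a dashed line. Most points lie low or high with few between, which in males follows in part from the choice of members. For ENSRNOG00000023387 and ENSRNOG00000059770 a single female point lies high.

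Females were not used to choose the members, so they give a separate reading of the same measure. Under the same rule, 9 of the 23040 genes qualified in females, or 0.0391%, and 4 of these were members. The 4 were ENSRNOG00000047706 (gap 4.48), ENSRNOG00000004247 (3.98), ENSRNOG00000052226 (3.15) and ENSRNOG00000019050 (2.37). They make up 33.3% of the 12 genes found in males and 44.4% of the 9 found in females. The other 6 members had smaller gaps that could count under the rule in females: 1.83 for ENSRNOG00000020781, 0.88 for ENSRNOG00000045686, 0.78 for ENSRNOG00000048561, 0.18 for ENSRNOG00000023387, 0.12 for ENSRNOG00000019736 and 0.00 for ENSRNOG00000059770. For ENSRNOG00000023387 and ENSRNOG00000059770 the rule could not be met with 1 female on, since it asks for 3 libraries on each side. For ENSRNOG00000019736, ENSRNOG00000045686 and ENSRNOG00000048561, the gap given lies among off values, because the highest off female was over the limit of 1 FPKM. The step from off to on went from 1.46 to 13.7 FPKM, from 1.54 to 6.17 FPKM and from 2.80 to 12.03 FPKM in these 3. The females' own additions were ENSRNOG00000046379 (gap 2.96), ENSRNOG00000045790 (2.71), ENSRNOG00000012067 (2.68), ENSRNOG00000041449 (2.47) and ENSRNOG00000045760 (2.10). Leaving out female 30000x replicate 5, the library that stood apart in genes detected, kept all 4 members within the rule. In that library 3 members were on. ENSRNOG00000019050 was off in only 3 females, controls 1, 4 and 5, and leaving out any of these took it out of the rule. Without control 1 or 4, 3 members were left, and without control 5 ENSRNOG00000020781 entered in its place. With a pseudocount of 0.1, which widens gaps among low values, 782 genes (3.39%) and 5 members met the rule.

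Few values fell between the states. A value was counted as intermediate when it lay between 0.25 and 0.75 of the log2 distance from the off median to the on median, and 15 of the 400 values did, 5 in males and 10 in females. They belonged to 7 members. In males the scarcity follows in part from how the members were chosen, so only the female values give a separate reading. On the upper side of the threshold, ENSRNOG00000019050 had 4 such values, from 3.83 to 6.69 FPKM. On the lower side, ENSRNOG00000048561 had 4, all in females, from 2.01 to 2.80 FPKM. These are the values whose state depends most on where the threshold lies. Sequencing depth was set beside the states. The median total of on libraries ran from 16925587 to 19089842 reads over the members and that of off libraries from 17251210 to 18469048, and the on libraries had the deeper median for 7 of 10 members. The part of depth in the states was not tested.

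Most animals differed in which members were on. The number on per library had a median of 3, with 1 to 4 in males and 1 to 7 in females. The 40 libraries showed 32 distinct combinations, and only 4 combinations occurred in more than 1 library. The pair ENSRNOG00000019050 and ENSRNOG00000019736, with no other member, was on in 5 libraries. These together with ENSRNOG00000045686 and ENSRNOG00000048561 were on in male control 3, male 1000x replicate 3 and female 1000x replicate 3. Another combination, ENSRNOG00000019050, ENSRNOG00000047706 and ENSRNOG00000052226, was seen in female 30x replicates 4 and 5. ENSRNOG00000052226 alone was on in male 1000x replicate 1 and female control 1. Libraries of the same group were in the same state at 6.45 of 10 members on average, libraries of the same sex at another dose at 6.40, and libraries of the other sex at 6.38.

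Across the 45 pairs of members, sharing of on animals was about as frequent as the members' separate shares give. In males, 67 joint on states were counted over all pairs, against 76.4 from multiplying each pair's shares, and in females 68 against 68. No on animal was shared by 14 pairs in males and 12 in females. In males, 16 pairs shared more animals than their shares give and 26 fewer, and in females 22 more and 21 fewer. Of the pairs above their shares, 8 were so in both sexes, 8 in males alone and 14 in females alone. Pairs of members share libraries with other pairs, and no test was made on them.

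The closest sharing in males was between ENSRNOG00000047706 and ENSRNOG00000059770. Both were on in male controls 1 and 4 and in male 30x replicate 5, that is, in 3 of the 4 males on for each (75.0% of either), where their shares give 0.80. In females they shared 30x replicate 1, where shares give 0.30. It was the only female on for ENSRNOG00000059770 and 16.7% of the 6 on for ENSRNOG00000047706. ENSRNOG00000045686 and ENSRNOG00000048561 shared 5 males, 55.6% of the 9 on for the former and 83.3% of the 6 on for the latter, and 2 females, of the 4 and the 6 on. All 4 males on for ENSRNOG00000023387 were also on for ENSRNOG00000019050, where shares give 2.20. It was the only male case in which the on animals of a member lay wholly within those of another. The pair was also on together in the 1 female on for ENSRNOG00000023387, where shares give 0.85.

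Other pairs differed between the sexes. ENSRNOG00000047706 and ENSRNOG00000019050 were never on together in males, with 4 and 11 males on, where shares give 2.20. In contrast, all 6 females on for the former were on for the latter. Since 17 of 20 females were on for ENSRNOG00000019050, shares alone give 5.10. ENSRNOG00000047706 and ENSRNOG00000052226 had no male in common but 3 females, all in the 30x group. ENSRNOG00000004247 and ENSRNOG00000048561 had no male in common but 3 females, where shares give 0.90 and 1.2. With shares this low, having no male in common is little different from what the shares give. The differences between sexes were not tested.

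A single animal carried much of the sharing among females. In female 30x replicate 1, 7 members were on: ENSRNOG00000004247, ENSRNOG00000019050, ENSRNOG00000020781, ENSRNOG00000023387, ENSRNOG00000047706, ENSRNOG00000052226 and ENSRNOG00000059770. It also had the highest FPKM sum of the 40 libraries, at 1052740, with a size factor of 0.709 for 17364090 reads. A read there thus stood for more FPKM than in most libraries, which bears on its on levels. The part of this scaling in its states was not tested. Without this library, 27 of the 45 pairs shared no female, against 12 with it, and the joint on states fell to 47, against 53.6 from the shares. Without female 30000x replicate 5 the numbers were 13 pairs and 65 joint on states against 64.5. The sharing above the shares seen for female pairs thus rested in part on 1 library.

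**Figure D3:**
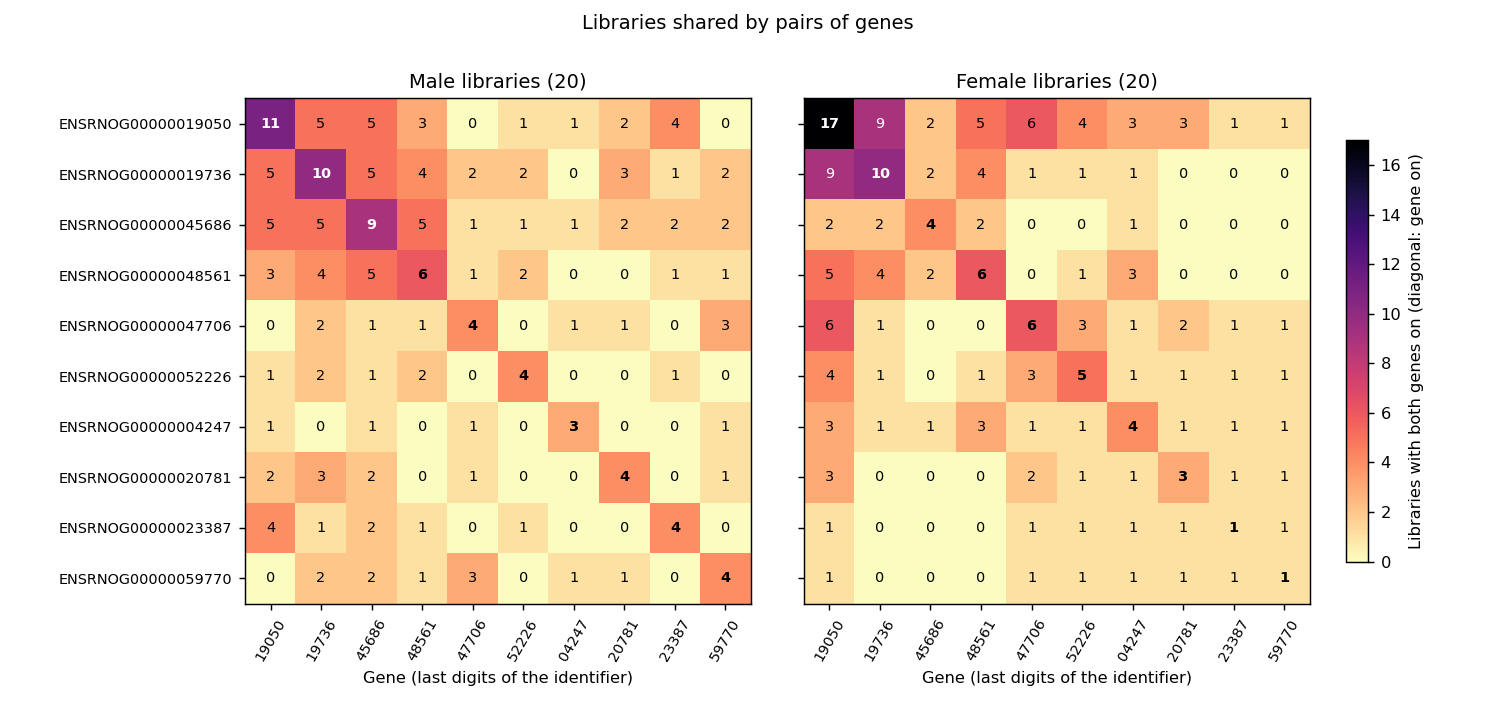
Number of libraries in which both members of a pair were on, in males and in females, with each member's own number of on libraries on the diagonal. The largest shared numbers are 5 in males and 9 in females and belong to members that are often on.

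The comparison of each dose with the controls of its sex asks whether the members' levels differ with exposure. The rule took no account of dose, but the 3 comparisons of a sex share its 5 controls and are not independent. Limma fits of log2(FPKM + 1) covered genes at 1 FPKM or more in at least 5 of the 20 libraries of a sex. Benjamini-Hochberg adjustment ran over all genes tested, with a threshold of 0.05. No member was called in any comparison. Members were chosen for a wide spread among males, which makes a call hard to reach with 5 libraries per group. The absence of calls is therefore not read as absence of a difference, and in males it is not read as a test. In males, 13110 genes were tested and 1 was called at each dose (0.00763%), with an unadjusted p under 0.05 for 9.52%, 7.22% and 5.88% of genes at 30x, 1000x and 30000x. In females, 13251 genes were tested and none was called (0%). Without adjustment, p was under 0.05 for 1053, 221 and 1309 genes in females at 30x, 1000x and 30000x, or 7.95%, 1.67% and 9.88%, and limma with voom weights on the recovered reads called none either. A member passed the filter only if it was on often enough, so 4 members entered in males and 6 in females, and counts over these say nothing of the rest. A fit without the filter covered all 10 and called none. In females, that fit gave an unadjusted p under 0.05 in limma for 4, 1 and 3 members at 30x, 1000x and 30000x. Over all its 21700 genes in females the numbers were 1403, 508 and 1645. The comparisons share their controls, and these counts are not read as support for a difference.

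In males, whose values chose the members, the log2 differences are a description. For the 4 members above the filter they ran from −0.70 to 1.40 over the 3 doses, the largest being ENSRNOG00000045686 at 30x, which was on in 3 of 5 libraries there and in 1 of 5 controls.

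In females, ENSRNOG00000052226 was on in 4 of 5 animals at 30x and in 1 of 5 controls, and ENSRNOG00000047706 was on in 3 of 5 animals at 30x and at 30000x and in no control. These 5 and 6 on libraries are what took either gene past the filter, so the fit without the filter is given for both. There ENSRNOG00000052226 had a log2 difference at 30x of 3.75 (SE 0.84, 95% interval 1.97 to 5.52), with an adjusted p of 0.76 in limma. With the filter and without female 30x replicate 3, the difference was 4.75 with an adjusted p of 0.000692 in limma. The animal left out was the only 30x female that was off, and the gene passed the filter mainly through that group. This call is thus not read as support for a difference. Over all alternatives of ENSRNOG00000052226 at 30x, the adjusted p in limma ran from 0.000692 to 0.98. At 1000x and 30000x the same gene was on in no female. ENSRNOG00000047706 had log2 differences without the filter of 3.33 at 30x and 3.30 at 30000x (SE 1.31 each), with adjusted p of 0.76 and 0.65 in limma. At 1000x it was on in no female and its difference was −0.08.

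ENSRNOG00000019050 was on in all 15 exposed females and in 2 of 5 controls. Its log2 differences from control were 2.18 at 30x, 2.70 at 1000x and 1.96 at 30000x. With the filter the SE was 0.87 each and the adjusted p in limma was 0.61, 1.00 and 0.49. Without the filter the SE was 0.90 each, and the adjusted p in limma was 0.76 at 30x and 0.65 at 30000x. These 3 differences share the same 5 controls, of which 3 were off. In males, where controls were on in 3 of 5, the same gene differed by −0.70, 0.45 and 0.43. ENSRNOG00000045686 had the opposite sign in females: it was on in 3 of 5 controls and in 0, 1 and 0 of 5 exposed animals, with log2 differences of −1.89, −1.26 and −1.65 (SE 0.63 each) and adjusted p of 0.76, 1.00 and 0.65 in limma without the filter, which it also passed mainly through the group where it was on. In males its differences were 1.40, 1.31 and 0.65. The difference between the sexes was not tested. The differences of ENSRNOG00000019736 and ENSRNOG00000048561 ran from −0.39 to 1.76 in females, with adjusted p of 0.92 to 1.00 in limma with the filter.

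The 4 members below the filter in both sexes were read from the fit without it. The log2 differences were −0.59, 0.25 and 0.20 at the 3 male doses for ENSRNOG00000004247, and 0.26, 0.01 and −0.02 in females. For ENSRNOG00000020781 they were −0.12, −0.80 and 0.63 in males and 0.93, 0.70 and 0.50 in females. In females, each of the 3 exposed groups held 1 animal on for the latter. For ENSRNOG00000023387 they were −0.96, 1.00 and 0.08 in males and 0.91, −0.22 and 0.00 in females. ENSRNOG00000059770 gave −0.55, −0.51 and −1.05 in males, and 0.57 in females at 30x, with no read in female controls or at the other doses. In males the same fit gave −1.20, −2.36 and −1.32 for ENSRNOG00000047706 and 0.98, 2.32 and 0.71 for ENSRNOG00000052226. The number of on states per group of 50, over the 10 members, was 15, 14, 15 and 15 in males from control to 30000x, and 10, 19, 15 and 13 in females. The 19 of the 30x females include the 7 of replicate 1.

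**Figure D4:**
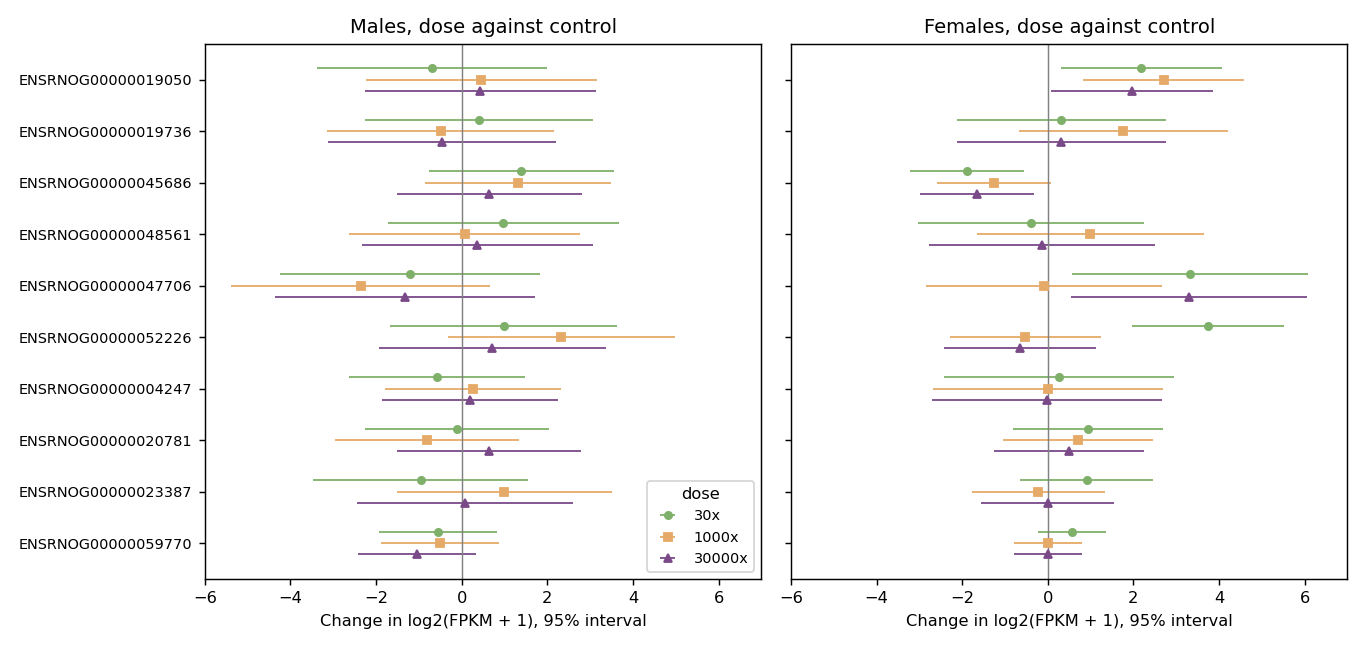
Difference in log2(FPKM + 1) of each member at the 3 doses against the controls of the same sex, from the limma fit without a filter, with 95% intervals (in males as a description). Most intervals span several log2 units and include 0.

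The members' levels were also set beside every other gene at 1 FPKM or more in at least 5 libraries, 13916 in all, by Pearson's r of log2(FPKM + 1) over the 40 libraries. These r describe likeness, and the points share stock, tissue and depth. For 9 members the most alike non-member reached r of 0.52 to 0.63, and no gene reached 0.7. Each of these r is the highest over 13916 genes, and how high unrelated genes would reach was not tested. The genes named are therefore not read as partners of a member. Examples are ENSRNOG00000059163 for ENSRNOG00000019050 (0.63), ENSRNOG00000021244 for ENSRNOG00000045686 (0.60) and ENSRNOG00000004442 for ENSRNOG00000047706 (0.58). Between members, r ran from −0.37 to 0.49 with a median of −0.02.

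ENSRNOG00000059770 was different in number: 34 genes reached r of 0.7 or more with it, and 30 of these had a median of at least 1 FPKM in its off libraries, so that they were not off themselves. In 10 of the 34, all 5 on libraries stood above all 35 others. The most alike was ENSRNOG00000021729 (r = 0.83), which read 4.53, 3.04, 2.51, 10.2 and 10.6 FPKM in male controls 1 and 4, male 30x replicate 5, male 1000x replicate 5 and female 30x replicate 1. Elsewhere it read 0.179 to 3.14 FPKM, overlapping with the lower of these. The next was ENSRNOG00000021732 (r = 0.82), with 92.9, 44.0, 40.6, 60.5 and 45.8 FPKM in the same libraries and 19.2 to 34.8 FPKM in the others, without overlap. With 4 males and 1 female on, r over females (0.87 and 0.71) rests on 1 library. The cause of this likeness was not tested.

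**Figure D5:**
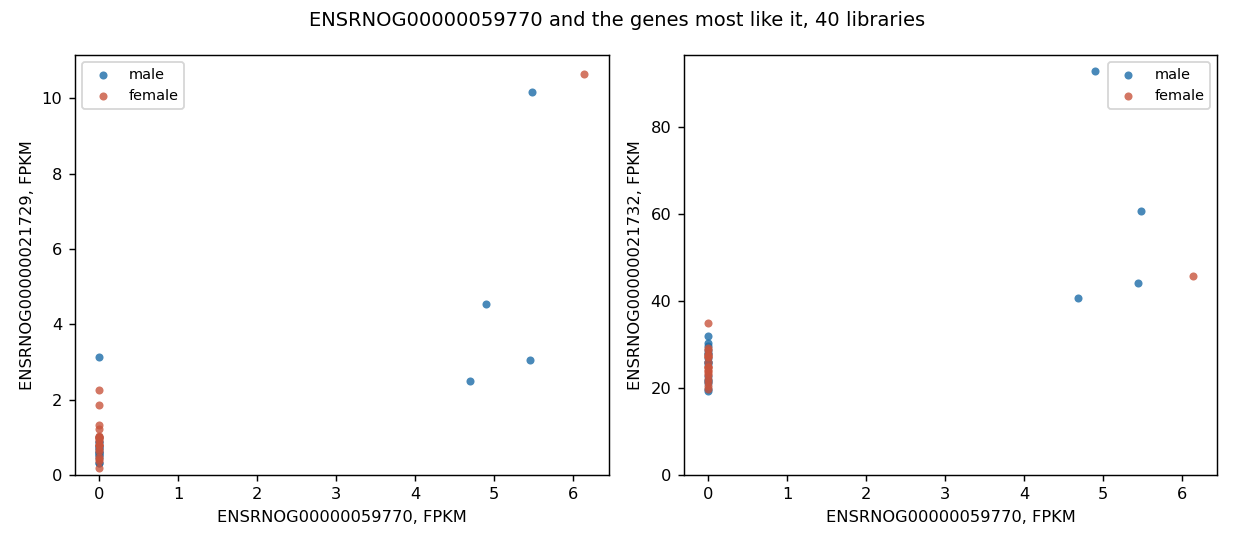
Level of ENSRNOG00000059770 against the 2 genes most alike to it, ENSRNOG00000021729 and ENSRNOG00000021732, in FPKM, with 1 point per library. The 5 libraries with ENSRNOG00000059770 on lie to the high side for both genes, without overlap for ENSRNOG00000021732.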

How the data were processed

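RNA of 40 adrenal libraries was sequenced by the authors, with HISAT2 2.0.5 and featureCounts 1.5.0-p3 named in the submitters' processing notes. The genome build, annotation and strand setting were not given in the sources used here. Each library's values are FPKM deposited by the authors. Whole reads were recovered from them: with a tolerance of 0.05 reads, 100.0% of 680244 values of 20717 genes came out whole. The scale fitted size factors (0.58 to 1.54), not library totals. The members and the lists were chosen with earlier results of these data known. On and off were set at the middle of the male gap in log2(FPKM + 1). Each dose was set against its sex's controls, each sex fitted on its 20 libraries, with limma 3.58.1 in R 4.3.3 (pseudocount 1, at least 1 FPKM in at least 5 libraries, Benjamini-Hochberg adjustment), a step tested on simulated data. Recovered reads were also fitted with limma's voom, chosen after seeing the data. Other steps used Python 3.11.15, numpy 2.4.6, pandas 2.3.3 and matplotlib 3.10.9. Besides the members, the 2 genes most alike to each member, non-members meeting the rule and the genes nearest its threshold were eligible to be named. Replicate numbers were not taken to pair libraries across groups in the main fits. Over 60 same-number pairs, r of deviations ran from −0.18 to 0.33, with 12 over 0.1. Pairs of unlike number were not set beside these, so the values cannot tell whether the numbers pair libraries. Alternatives were other pseudocounts, filters, scalings, thresholds and leaving out each library.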

Additional observations from a re-analysis of the deposited data

Results flagged for a closer look

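Within groups of 5 libraries, the highest or lowest library stood far from the others in 38 sets of values, by the gap to its nearest neighbour against the range of the group. For normally distributed values, chance alone gives such a gap in about 1 in 20 groups, and the members were chosen for a wide gap. The rate does not hold for sets that are mostly 0, where a single read is enough to be listed. An example is ENSRNOG00000047706 in female 1000x, with 1 read in 1 library and 0 in the others. Of the 80 sets of member values, 36 are in this list. The library that stood apart is given here with its value of log2(FPKM + 1), and it was the highest of its group unless another reading is given. For ENSRNOG00000004247 the value was 4.14 in male control, 5.09 in male 1000x, 4.49 in male 30000x, 4.89 in female control, 5.92 in female 30x, 4.88 in female 1000x and 4.78 in female 30000x. In ENSRNOG00000019736 it was 1.22 in female 1000x (the lowest). ENSRNOG00000020781 stood at 4.97 in male control, 4.09 in male 30x, 0.91 in female control, 4.72 in female 30x, 4.03 in female 1000x and 2.74 in female 30000x. For ENSRNOG00000023387 the value was 4.57 in male control, 5.38 in male 30000x, 1.62 in female control and 5.60 in female 30x. In ENSRNOG00000045686 it was 3.31 in male control, 0.36 in female 30x and 3.02 in female 1000x. ENSRNOG00000047706 stood at 5.83 in male 30x, 5.47 in male 30000x, 0.49 in female control and 0.08 in female 1000x. For ENSRNOG00000048561 the value was 4.54 in male control, 5.60 in male 1000x and 5.57 in female 30000x. In ENSRNOG00000052226 it was 0.97 in male control, 5.46 in male 30x, 3.48 in male 30000x, 3.77 in female control and 0.62 in female 30x (the lowest). ENSRNOG00000059770 stood at 2.51 in male 30x, 2.70 in male 1000x and 2.84 in female 30x. Values of 0.08, 0.36, 0.49, 0.62, 0.91 and 0.97 among these are off states, and 1.22 and 1.62 also lie on the off side of their thresholds. Besides the members, 1 library of the male 30x group held 23838651 reads, the most of its group, and 1 of the female 30000x group had 11905 genes at 1 FPKM or more, the fewest of its group.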

How the results depend on the processing

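Of 796 alternative values, 756 were counted as unchanged, 39 moved, 1 became a call and none reversed. An uncalled change with another sign was counted as unchanged. Among 502 alternatives of member changes, 40 had another sign, all of them uncalled. The genes called in males numbered 1 at each dose. At 30x the count was 0 with quantile normalization and 0 with scaling to library totals, and 1 to 3 when a library was left out. At 1000x it was 0 with both of these and with the 2 compared groups alone, and 0 to 1 with a library left out. At 30000x it was 0 without the filter on low values, with a mean of at least 5 FPKM, with the replicate block, with the 2 groups alone and with voom, and 0 to 1 with a library left out. The replicate block changed no other call. By the labels, libraries share only a number across groups. In females, the genes called numbered 0 to 1 at each dose when a library was left out, and the members called at 30x 0 to 1, the 1 being ENSRNOG00000052226 (log2 difference 4.75) without female 30x replicate 3. That fit left out the only off animal of the 30x group, through which the gene mainly passed the filter. The call is thus not read as support for a difference. The cause was not tested. The female gap rule held for 2 members with under 0.5 FPKM below the gap, 2 when 5 libraries were asked for on either side and 3 to 5 with a library left out. Over all genes it held for 9, for 20 with a gap of 1.5 and for 782 with a pseudocount of 0.1. With a threshold of 1 FPKM for every member, 6 pairs in place of 12 shared no on female. Without female 30x replicate 1 or female 30000x replicate 5, alternatives chosen after seeing the data, 27 and 13 pairs shared none. Where a member fell below the filter without a library, that alternative gave no value. Depth limits the off state: 1 read is the smallest step, and a value of 0 allows up to 3 reads.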
